A study of Arabidopsis thaliana with 6 samples.

Results

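Noncoding RNA genes make up 67 of the 5322 rows in the authors' deposited table of genes that differ between dme and wild type (WT) seedlings of Arabidopsis thaliana. They were taken as every nuclear gene that the table types as other RNA (62 genes), microRNA (2), small nucleolar RNA (2) or pre-tRNA (1), with mitochondrial and chloroplast genes left out. The RNA came from whole seedlings of the Ler accession, grown on MS plates for 7 days after germination. The dme group (3 libraries) carries a mutation of DME, given in the labels as dme/- with no allele named, and the WT group (3 libraries) carries none. DME encodes a DNA glycosylase that removes methylated cytosines, and the design asks what its loss changes among the transcripts of seedlings.

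The table holds no value per library. For each gene it gives the mean normalized count over all libraries, the log2 fold change and an adjusted p-value, and it lists genes only past a 2-fold change and an adjusted p of 0.05. Below, the mean of each genotype is the one implied by the table's mean and fold, taking 3 libraries per genotype and a plain ratio of means. The spread between libraries and the sequencing depth cannot be stated, and the labels do not say whether the 3 libraries of each genotype are separate cultures, so the authors' p-values may measure technical spread. The direction, dme over WT, follows the name that the table carries, since no header states which genotype is on top of the ratio. DME itself had an implied mean of 1107 in dme and 3249 in WT in the authors' deposited table (log2 fold change -1.55, adjusted p 4.88e-17). In whole seedlings, fewer cells of a type and less RNA per cell cannot be told apart.

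Noncoding RNA genes are a mixed class. MicroRNAs are cut from hairpin transcripts and guide Argonaute proteins to complementary messenger RNAs, which in plants are cut or kept from translation. Small nucleolar RNAs guide the chemical modification of ribosomal RNA, and pre-tRNAs are trimmed to the tRNAs used in translation. Most annotated long noncoding RNAs of Arabidopsis have no known role, and many lie across a protein-coding gene on the opposite strand, as natural antisense transcripts. Active DNA demethylation by DME is known best from the central cell of the female gametophyte and from pollen.

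The 2 microRNA genes can be shown by the mature sequences that the deposited table itself quotes, each found once in the TAIR10.1 genome. They are printed 5′ to 3′ with the seed (bases 2 to 8) in capitals, and the 2 seeds differ. MIR408 gives a microRNA of 21 bases at chr2:19319933-19319953 on the plus strand, and MIR840A one of 22 bases at chr2:771492-771513 on the minus strand.
MIR408: aUGCACUGccucuucccuggc
MIR840A: aCACUGAAggaccuaaacuaac
Beside them stand the stretches complementary to the MIR408 microRNA in the exons of 6 protein-coding genes of TAIR10.1, 5 of them in the table and LAC13 a known target that is not. Capitals mark bases that differ from the perfect complement, with a G:U pair counted as a difference. ARPN (plantacyanin) and UCC2 (uclacyanin) are small copper proteins, LAC3, LAC12 and LAC13 are laccases, which are copper oxidases, and IPT5 makes cytokinin. The stretches lie at chr2:827696-827716 (ARPN, minus strand), chr2:12889603-12889623 (LAC3, minus), chr2:18462149-18462169 (UCC2, minus), chr5:1594966-1594986 (LAC12, plus), chr5:6363545-6363565 (IPT5, minus) and chr5:2210756-2210776 (LAC13, plus).
ARPN: CcAagggaagaggcagtgcat
LAC3: AccagTgaagaggcTgtgcaG
UCC2: gccagggTGgagTcagtgcTt
LAC12: gccGgTgaagaggcTgtgcaA
IPT5: gAcagggaagagAcagtgcTC
LAC13: gccGgTgaagaggcTgtgcaG

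At the table's 2-fold threshold, most noncoding RNA genes were lower in dme, whereas most listed genes were higher. In the authors' deposited table, 28 of the 67 were higher in dme and 39 lower. That is 41.8% higher, beside 72.8 percent of all 5311 listed measurements, and 58.2% lower, beside 27.2 percent. Protein-coding genes were higher in 73.7% of 5112 cases and transposable element genes in 49.4% of 77. The difference in direction was described and not tested. Which direction held the majority of noncoding RNA genes turned with the size of the change. At a 4-fold threshold 15 were higher and 10 lower (60% higher, beside 85.6% of all listed genes). The share higher thus stayed below that of all listed genes. Of the noncoding RNA genes with reads in both genotypes, 11 were higher and 6 lower by 4-fold. With a constant of 0.5 added to every log2 fold change, 58.3% of noncoding RNA genes and 86.0% of all genes still past 2-fold were higher. With 0.5 subtracted, the shares were 36.1% and 66.3%. Only listed genes could be shifted, and genes outside the threshold could not enter. These shares therefore do not show what another scaling of the libraries would give.

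**Figure D1:**
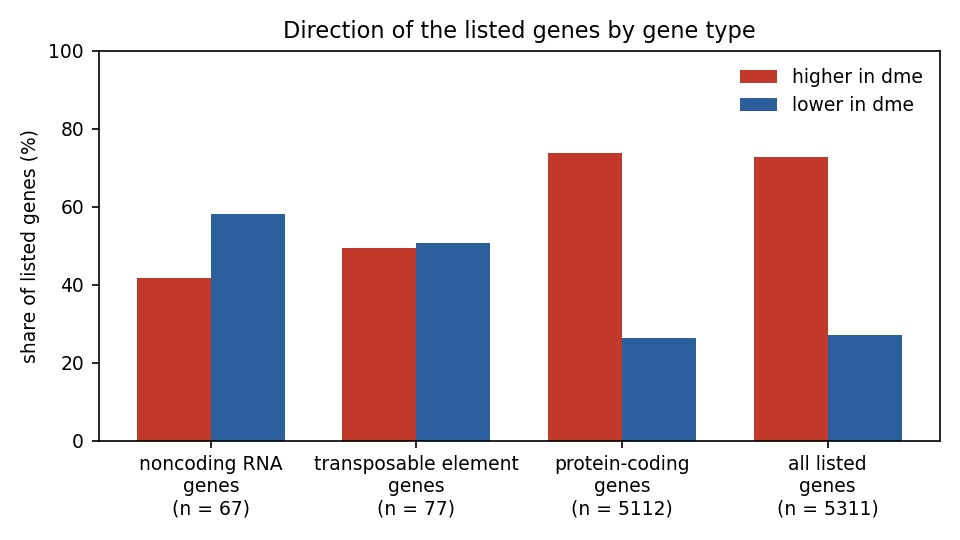
Share of listed genes (percent, y axis) that were higher in dme or lower in dme, by gene type as given in the authors' deposited table, with the number of genes under each pair of bars. Noncoding RNA genes were higher in 41.8% of cases, against 73.7% of protein-coding and 72.8% of all listed genes.

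The noncoding RNA genes rest on fewer reads than most listed genes. Their median mean normalized count was 57.9 in the authors' deposited table, beside 204.3 over all listed genes, and 38.8% of them had a mean under 50, beside 23.8%. Within the range of means from 10 to 500, 23 of 53 (43.4%) were higher in dme, beside 75.9% of 3206 listed genes in that range. An adjusted p under 0.01 was given to 60 of the 67 (89.6%), beside 90.5% of all listed genes. The smallest adjusted p, 2.12e-78, belongs to sORF2 and the largest, 0.0495, to AT1G26208.

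The sizes of the changes were close to those of the whole table in both directions. Among noncoding RNA genes with reads in both genotypes, the 24 higher ones had, by the authors' deposited table, a median log2 fold change of 1.92, beside 1.98 for all listed genes. The 35 lower ones had a median of -1.43, beside -1.38. With genes without reads in 1 genotype included, 15 of the 28 higher and 10 of the 39 lower noncoding RNA genes passed 4-fold. Over all listed genes these were 2035 of 3867 higher ones and 343 of 1444 lower ones (38.3 and 6.46 percent of all listed genes). Just inside the 2-fold threshold on the higher side were AT4G36648 and AT3G56408, each at 1.01 (log2 fold change, from the authors' deposited table). On the lower side they were AT1G26208 (-1.02), HID1 (-1.03), sORF22 (-1.04) and AT3G07215 (-1.07). Genes outside the threshold are not analysed here.

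**Figure D2:**
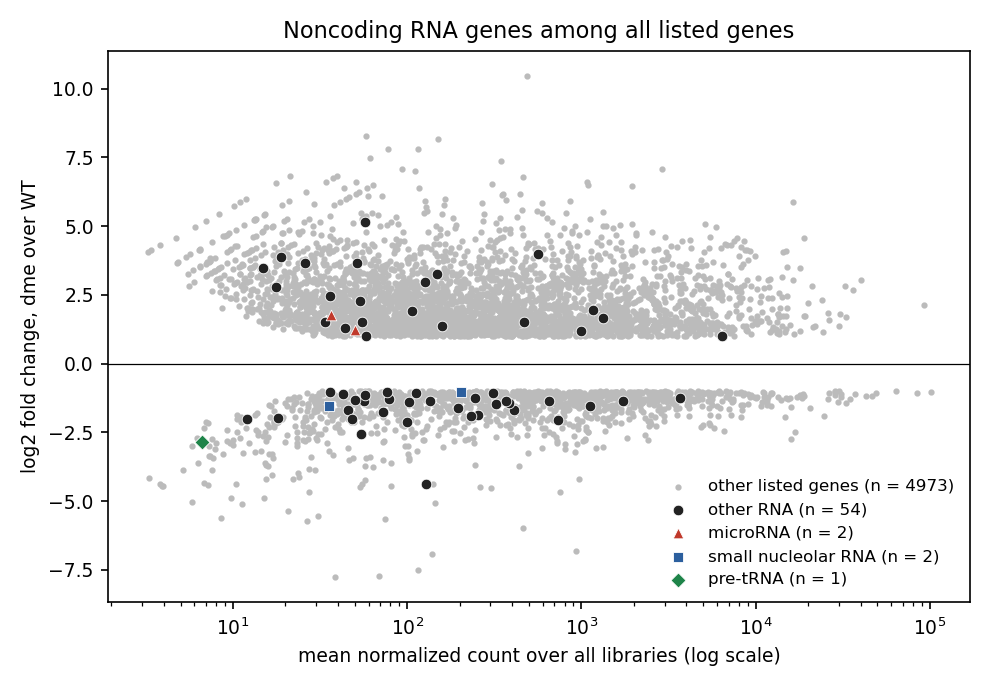
Log2 fold change, dme over WT (y axis), against the mean normalized count over all libraries (x axis, log scale) for listed genes with reads in both genotypes, from the authors' deposited table. Black circles, red triangles, blue squares and the green diamond mark the 59 noncoding RNA genes by type, and most of them lie at means under 500, on both sides of 0.

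Few of the annotated noncoding genes were in the table at all. Of the lncRNA and ncRNA genes of the TAIR10.1 annotation, 62 of 3780 (1.64 percent) were listed in either direction. The same share was 0.613 percent for microRNA genes, 0.697 percent for small nucleolar RNA genes, 0.16 percent for tRNA genes and 18.6 percent for protein-coding genes. These denominators are those of TAIR10.1, whereas the authors' build was named TAIR10. Loci that the authors' annotation may not hold count here as not listed, so the shares of the gene types are not compared. Absence from the table does not tell a small change from a missed threshold or a gene that was never tested. Library preparation for total RNA was not described further in the labels, so how well short transcripts were captured is not known.

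Both microRNA genes were higher in dme. MIR840A had an implied mean of 56.7 in dme and 16.5 in WT in the authors' deposited table (log2 fold change 1.78, adjusted p 8.81e-05). MIR408 had 70.0 in dme and 29.6 in WT (log2 fold change 1.24, adjusted p 0.00586). The labels do not say that small RNAs were sequenced, so these counts are not read as levels of the mature microRNAs. miR408 is known in Arabidopsis for accumulating under copper deficiency and for guiding the cutting of plantacyanin and laccase messages. miR840 is less well described.

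Stretches complementary to the miR408 sequence were found in listed and in unlisted genes. Of 27444 annotated protein-coding genes, 11 (0.0401%) had such a stretch with at most 4 differing bases and no gap, and 5 of the 11 were in the table, all higher in dme. Over the whole genome 18.6 percent of annotated protein-coding genes were listed, and 72.8 percent of listed genes were higher, and nothing particular to these 5 genes is read from their direction. UCC2 had an implied mean of 8394 in dme and 2122 in WT in the authors' deposited table (log2 fold change 1.98, adjusted p 5.19e-109). LAC3 had 1644 in dme and 268.0 in WT (2.62, adjusted p 3.13e-76), and ARPN had 279.4 in dme and 72.5 in WT (1.95, adjusted p 6.45e-21). These 3 have their best stretches above with 4, 4 and 2 differing bases. IPT5 had 76.1 in dme and 34.3 in WT (1.15, adjusted p 0.0155), and LAC12 57.5 in dme and 7.55 in WT (2.93, adjusted p 1.47e-07). Not listed were WRKY19, whose stretch has only 3 differing bases, and LAC13, AT2G07806, AT3G02200 and AT5G49945, with 4 each. The only perfect complement lies in AT2G47020, the gene on the strand opposite MIR408 itself, which was not listed. A complementary stretch is a match of letters and no measured cutting site.

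**Figure D3:**
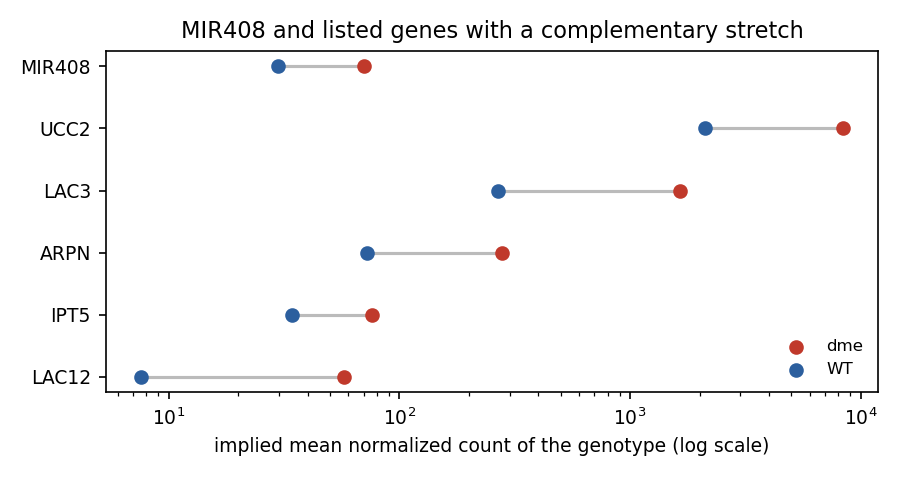
Implied mean normalized count of the genotype (x axis, log scale; red for dme, blue for WT) of MIR408 and of the 5 listed genes with a stretch complementary to its microRNA, from the authors' deposited table. In all 6 the dme point lies to the right of the WT point, from 57.5 against 7.55 for LAC12 to 8394 against 2122 for UCC2.

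For the miR840 sequence, 1 annotated protein-coding gene had a stretch with at most 4 differing bases. It is AT2G02750, a pentatricopeptide repeat gene that overlaps MIR840A by 226 bases on the same strand. The stretch, at chr2:771386-771407 on the minus strand, also lies within MIR840A itself, so it is not a site apart from the microRNA gene. AT2G02750 went the other way from MIR840A, with an implied mean of 7.09 in dme and 46.8 in WT in the authors' deposited table (log2 fold change -2.72, adjusted p 3.45e-05). Reads from the shared stretch cannot be told apart.

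The genes of the 2 small nucleolar RNAs and the pre-tRNA were lower in dme. HID1, typed in the table as a small nucleolar RNA gene and known as a noncoding RNA that promotes photomorphogenesis in red light, had an implied mean of 134.4 in dme and 274.0 in WT in the authors' deposited table (log2 fold change -1.03, adjusted p 4.12e-07). Its 80 annotated bases lie within AT2G35750 on the same strand. That gene had nearly the same values, a mean of 206.9 beside 204.2 and the same log2 fold change of -1.03, and whether the 2 rows count the same reads was not tested. AT3G50825, a small nucleolar RNA gene, had 18.4 in dme and 53.1 in WT (-1.53, adjusted p 0.00234). AT3G09595, a pre-tRNA gene for serine with anticodon TGA, had 1.61 in dme and 11.7 in WT (-2.86, adjusted p 0.0144), on a mean of only 6.65. The adjacent gene of AT3G09595, AT3G09590, which encodes a protein of the family of pathogenesis-related protein PR1, had -3.38 (log2 fold change, from the authors' deposited table). A further small nucleolar RNA locus enters through AT2G46192, typed as other RNA, which overlaps 5 annotated small nucleolar RNA genes on the same strand. Its overlap with AT2G09680 among them is only 24 bases. AT2G46192 had 28.6 in dme and 71.2 in WT (-1.32, adjusted p 0.00423). None of the 5 was listed in its own right, and whether the authors' annotation held them is not known.

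Of the 6 genes named sORF, for short open reading frame, 5 were higher in dme and 1 lower, beside 72.8 percent higher over all listed genes. sORF2 (AT1G11185) had an implied mean of 1059 in dme and 66.6 in WT in the authors' deposited table, a 15.9-fold change (log2 fold change 3.99, adjusted p 2.12e-78). sORF4 had 269.0 in dme and 28.1 in WT (3.26, adjusted p 7.28e-25), and sORF3 had 223.7 in dme and 28.5 in WT (2.97, adjusted p 8.42e-18). All 3 rose by over 4-fold, at means above the median of noncoding RNA genes. sORF14 had 95.2 in dme and 7.57 in WT (3.65, adjusted p 8.88e-05), and sORF1 had 1382 in dme and 610.0 in WT (1.18, adjusted p 4.33e-15). The exception was sORF22, with 49.9 in dme and 103.0 in WT (-1.04, adjusted p 0.0062). What these short reading frames encode, if anything, is not given in the table.

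sORF14 lies over a member that moved the other way. AT1G26208 shares 411 bases with it on the same strand, and had 23.7 in dme and 48.1 in WT in the authors' deposited table (log2 fold change -1.02, adjusted p 0.0495). AT1G26208 is itself the antisense partner of SOFL1, a member of the SOB five-like family linked to cytokinin, which fell with a log2 fold change of -1.08.

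The largest rises among other RNA genes, sORF genes aside, were mostly of genes at low counts in WT. AT4G26095, antisense to the disease resistance gene RPS2, had an implied mean of 111.5 in dme and 3.10 in WT in the authors' deposited table, a 36.01-fold change (log2 fold change 5.17, adjusted p 1.38e-05). RPS2 was not listed, while CK1, a casein kinase gene that overlaps AT4G26095 by 173 bases on the same strand, rose with a log2 fold change of 2.39. AT2G35637 had 35.4 in dme and 2.43 in WT (3.86, adjusted p 0.00217), AT1G20515 had 47.7 in dme and 3.81 in WT (3.64, adjusted p 0.00731), and AT4G23205 had 27.3 in dme and 2.42 in WT (3.50, adjusted p 0.00951). At such WT means the size of the fold rests on very few reads. AT4G27852 had 31.1 in dme and 4.44 in WT (2.81, adjusted p 0.003), and AT2G35859 had 61.0 in dme and 11.1 in WT (2.47, adjusted p 0.0182).

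The largest fall was that of AT1G67105, with an implied mean of 11.7 in dme and 245.5 in WT in the authors' deposited table, 21.0-fold lower (log2 fold change -4.39, adjusted p 1.33e-23). Its neighbour LBD40, a LOB domain transcription factor gene, was higher, with no reads in WT and a mean of 9.46. AT3G13061 had 15.7 in dme and 92.5 in WT (-2.55, adjusted p 2.1e-08), and AT2G06002 had 37.7 in dme and 162.3 in WT (-2.11, adjusted p 4.27e-10). AT3G13061 is antisense to ECT5, a reader of methylated adenosine in RNA, which was not listed. AT5G15845 had 288.8 in dme and 1182 in WT (-2.03, adjusted p 2.77e-10), the highest counts among the large falls. AT5G63195 had 19.0 in dme and 77.3 in WT (-2.03, adjusted p 0.000762), and AT1G30282 had 4.85 in dme and 19.3 in WT (-1.995, adjusted p 0.0255).

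Of the 67 genes, 8 had no reads in 1 genotype by the form of their fold, and no fold is given for them. Without WT reads were AT1G55525, AT1G34844, AT4G01533 and AT3G12502, with means over all libraries of 27.5, 25.7, 14.0 and 11.6 in the authors' deposited table. Without dme reads were AT2G44995, AT1G34392, AT3G15536 and AT4G40085, with means of 16.02, 9.79, 7.21 and 3.46. In all of them the reads are few, and a count of 0 in 3 libraries does not show that the transcript is absent. Over the whole table, 55 genes were without dme reads and 235 without WT reads.

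**Figure D4:**
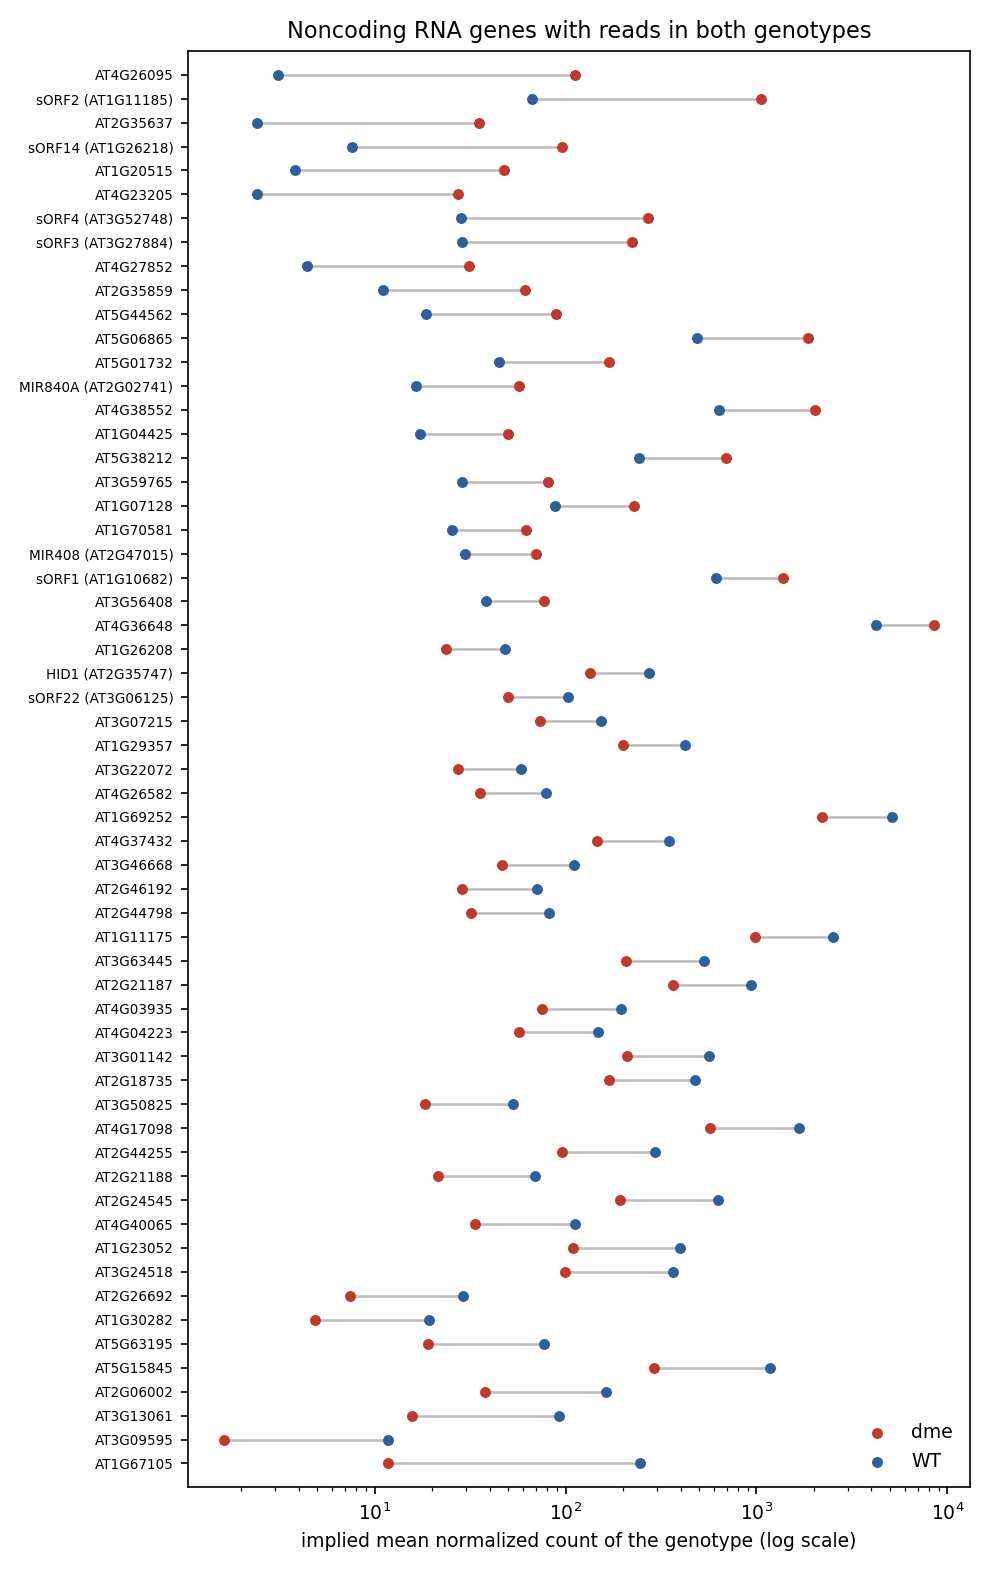
Implied mean normalized count of the genotype (x axis, log scale; red for dme, blue for WT) for the 59 noncoding RNA genes with reads in both genotypes, in the order of their log2 fold changes (authors' deposited table). AT4G26095 at the top had 111.5 in dme and 3.10 in WT, and AT1G67105 at the bottom had 11.7 in dme and 245.5 in WT.

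Per kilobase of annotated exon, the most abundant noncoding RNA genes had log2 fold changes close to the 2-fold threshold, apart from sORF2. AT1G69252 had the highest mean per kilobase, 3747, with an implied mean count of 2197 in dme and 5154 in WT in the authors' deposited table (log2 fold change -1.23, adjusted p 2.45e-24). AT4G36648 followed at 3036 per kilobase, with 8535 in dme and 4247 in WT (1.01, adjusted p 2.01e-14). AT1G11175 stood at 2182 per kilobase, with 977.7 in dme and 2505 in WT (-1.36, adjusted p 7.18e-31). sORF1 and sORF2 came next at 1419 and 1070 per kilobase, and HID1 reached 2552 only on its 80 annotated bases. The lowest was AT4G40085 at 2.29. Annotated exons had a median length of 1265 bases in the higher genes and 981 in the lower ones, with ranges of 218 to 5766 and 80 to 4620 that overlap. AT1G11175 and sORF2 flank SCAMP2, a gene of secretory carrier membrane proteins, on either side. SCAMP2 fell with a log2 fold change of -1.16, as AT1G11175 did, while BFN1, a nuclease gene known from senescence, lies beyond sORF2 and rose with 1.87.

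By chromosome the numbers are small. Chromosome 2 held 4 higher and 11 lower genes and chromosome 3 held 5 higher and 11 lower. On chromosome 1 there were 9 higher and 8 lower, on chromosome 4 there were 6 and 7, and on chromosome 5 there were 4 and 2. No test was made of these counts. All listed genes were not counted by chromosome, so no difference between chromosomes is read from them.

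Where an antisense gene and its partner were both in the table, they nearly always moved together. The deposited table calls 34 of the 67 potential natural antisense genes, 15 higher and 19 lower in dme, and names 35 partner loci for them. Of these partners 15 (42.9%) were listed, 14 of them (93.3%) in the same direction as the noncoding gene. For higher antisense genes, 10 of 16 partners (62.5%) were listed and all 10 were higher. For lower antisense genes, 5 of 19 partners (26.3%) were listed and 4 were lower. Beside this, 15.5 percent of the protein-coding genes overlapping a listed higher protein-coding gene on the opposite strand were listed, and 16.1 percent of those overlapping a listed lower one. Among these listed partners, 84 of 109 (77.1%) were higher for higher genes, and 18 of 43 (41.9%) were lower for lower genes. Listed pairs of protein-coding genes on opposite strands shared their direction in 51 of 76 cases (67.1%), and adjacent listed protein-coding genes in 848 of 1147 (73.9%). Overlaps between protein-coding genes were taken at any length and were not matched in length to those of the antisense genes. No source used here says whether strand entered the counting, and without it an antisense gene and its partner cannot be told apart by their reads.

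The higher pairs include the chitinase gene HCHIB, the inhibitor gene PGIP1 and the cell wall protein gene FLA16. AT3G12502, with no WT reads, lies opposite HCHIB, the basic chitinase known as PR3, which had an implied mean of 3680 in dme and 229.8 in WT in the authors' deposited table (log2 fold change 4.001, adjusted p 2.07e-284). AT5G06865 had 1858 in dme and 485.0 in WT (1.94, adjusted p 5.49e-53), and PGIP1 opposite it, an inhibitor of fungal polygalacturonases, had 8083 in dme and 921.2 in WT (3.13, adjusted p 2.04e-246). AT2G35859 lies opposite FLA16, a fasciclin-like arabinogalactan protein gene, which rose with a log2 fold change of 1.46 beside 2.47. Each gene of these pairs was higher in dme, and the sizes of the changes differed within the pair. AT4G38552 had 2035 in dme and 637.2 in WT (1.68), and AT4G38550, of the phospholipase-like PEARLI 4 family, had 15571 in dme and 3074 in WT (2.34).

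In the other higher pairs, values for the antisense gene are given before its partner's. In the authors' deposited table the log2 fold changes were 3.86 and 3.65 for AT2G35637 and the homeodomain-like gene AT2G35640. They were 1.90 and 1.11 for AT5G01732 and SCAR4, which acts in actin nucleation, and 1.51 and 2.15 for AT5G38212 and the protein kinase gene AT5G38210. They were 1.38 and 1.31 for AT1G07128 and STN1, a telomere-capping gene, and 1.01 and 1.94 for AT3G56408 and AT3G56410, of unknown function. AT1G34844 and AT1G34842, typed as a transposable element gene, both had no reads in WT. Both genes were higher in dme in each of these 6 pairs.

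The lower pairs include a CONSTANS-like gene and a regulator of the epidermis. AT5G15845 lies opposite COL1, a CONSTANS-like gene, which had an implied mean of 1913 in dme and 9051 in WT in the authors' deposited table (log2 fold change -2.24, beside -2.03 for AT5G15845). AT3G01142 had 208.9 in dme and 562.4 in WT (-1.43), and MYB106, a regulator of trichomes and cuticle, had 42.2 in dme and 93.6 in WT (-1.15). AT1G26208 and SOFL1 had -1.02 and -1.08. The antisense genes and their partners fell to a similar degree in these 3 pairs. AT2G21187 had -1.37 and AT2G21185 -3.68, where AT2G21185 had an adjusted p of only 0.0461 at a mean of 244.8. The pair that moved apart was AT4G37432, with 145.7 in dme and 346.7 in WT (-1.25, adjusted p 0.000133), and the cytochrome P450 gene CYP91A2, with 552.4 in dme and 239.8 in WT (1.204, adjusted p 5.15e-10). Over the 13 pairs with reads in both genotypes for both genes, the 2 log2 fold changes differed by 0.0552 to 2.45, with a median of 0.666.

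**Figure D5:**
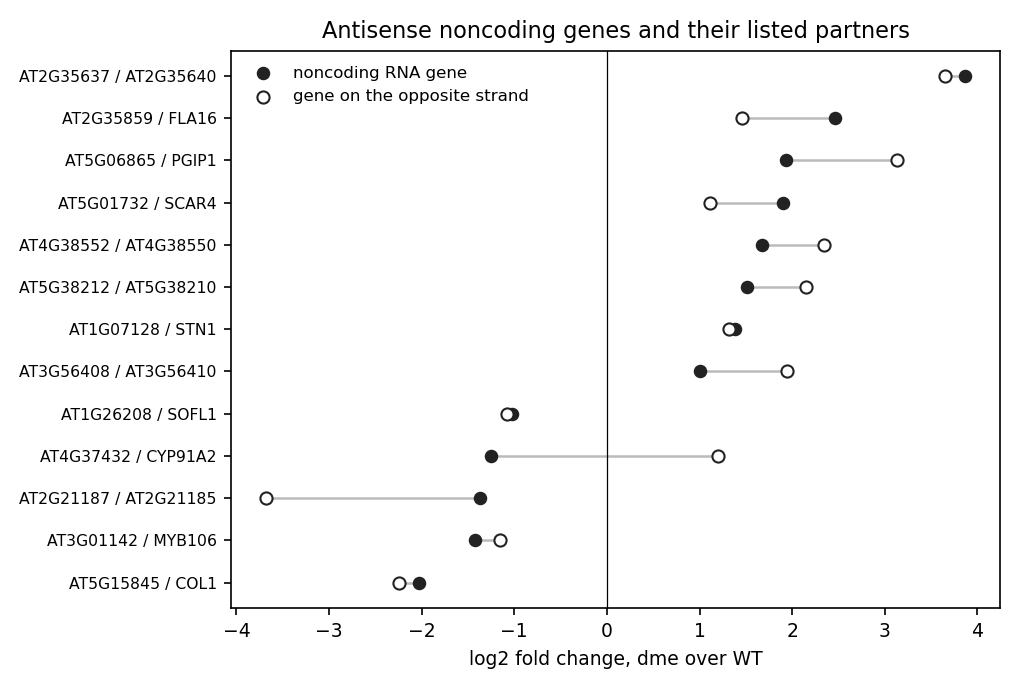
Log2 fold change, dme over WT (x axis), of antisense noncoding RNA genes (filled circles) and of the genes on the opposite strand (open circles), for the 13 pairs that were both in the authors' deposited table with reads in both genotypes. The 2 circles of a pair lie on the same side of 0 in 12 of 13 pairs, AT4G37432 and CYP91A2 being the exception.

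Pairs drawn from overlaps in the TAIR10.1 annotation include all the listed pairs above and few others, so their count is not separate support. There, 38 of the 67 (56.7%) overlapped a protein-coding gene or pseudogene on the opposite strand, and 16 of 17 listed pairs (94.1%) shared their direction. This adds AT3G46668, with 46.2 in dme and 111.2 in WT in the authors' deposited table (log2 fold change -1.27), and UGT76E11, a glucosyltransferase gene (-1.01). It also adds AT1G23052 and AT1G23050, which overlap by 825 bases on opposite strands. Their means of 254.3 and 254.1 and their log2 fold changes of -1.87 and -1.87 were nearly identical, and whether the 2 rows count the same reads was not tested.

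Most antisense genes that were lower in dme had a partner that was not in the table. Examples are AT3G63445 opposite CKX6, a cytokinin oxidase gene, with 206.0 in dme and 530.6 in WT in the authors' deposited table (log2 fold change -1.37, adjusted p 9.02e-16), and AT2G24545 opposite AFR, an F-box gene of light signalling, with 193.1 in dme and 625.6 in WT (-1.70, adjusted p 9.13e-14). AT3G24518 lies opposite HSFC1, a heat shock factor gene, and had 98.9 in dme and 365.9 in WT (-1.89, adjusted p 1.79e-11). These 3 genes fell on counts well above the median of noncoding RNA genes. AT4G17098 had 572.9 in dme and 1660 in WT (-1.54, adjusted p 4.93e-22) without a change of AT4G17100 that passed the thresholds. AT4G26582 opposite the oligopeptide transporter gene OPT5 had 35.6 in dme and 78.6 in WT (-1.14, adjusted p 0.00314). AT5G44562, opposite VPS2.2 of the ESCRT machinery, was a higher gene of this kind, with 88.8 in dme and 18.4 in WT (2.27, adjusted p 2.97e-05).

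The remaining lower genes that lie on no listed partner moved by similar amounts. AT2G18735 had an implied mean of 169.5 in dme and 474.0 in WT in the authors' deposited table (log2 fold change -1.48, adjusted p 1.97e-12), and AT4G40065 had 33.5 in dme and 112.3 in WT (-1.75, adjusted p 2e-06). AT2G44255 had 95.6 in dme and 293.5 in WT (-1.62, adjusted p 2.66e-09), and AT1G29357 had 199.3 in dme and 419.8 in WT (-1.07, adjusted p 3.7e-07). No role is given in the table for any of these 4. AT4G03935, AT4G04223, AT2G21188, AT2G26692, AT2G44798, AT3G07215 and AT3G22072 also fell, with log2 fold changes between -1.07 (AT3G07215) and -1.96 (AT2G26692). Among the higher genes, AT1G04425, AT3G59765 and AT1G70581 rose with 1.53, 1.51 and 1.28.

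Adjacent protein-coding genes that do not overlap a noncoding RNA gene were mostly outside the table. For higher noncoding RNA genes 12 of 56 neighbours (21.4%) were listed, 9 of them (75.0%) higher. For lower ones 11 of 78 (14.1%) were listed, 5 of them (45.5%) lower. Around listed protein-coding genes the shares were 23.3% listed with 82.9% in the same direction for higher genes, and 20.3% with 44.7% for lower genes. Among the neighbours of higher genes were OPCL1, an enzyme of jasmonate synthesis beside AT1G20515, at 4.47 (log2 fold change, from the authors' deposited table), and NAC067, a transcription factor gene beside AT4G01533, with 3.48. CRK11, a cysteine-rich receptor kinase gene beside AT4G23205, rose with 2.90, and WRKY70, a regulator of salicylic acid responses beside AT3G56408, with 1.69. These neighbours, chosen among the 9 that rose, were all higher in dme, as most listed genes were. AT5G01740, beside the higher gene AT5G01732, fell with -3.24. Also listed were AT4G01535, likewise beside AT4G01533, with 2.53, and AT2G47010 beside MIR408 with 1.89. AT3G13062 beside AT3G13061 had -1.11. AT2G35760 beside HID1 rose with 1.46, while HID1 fell. UCC2, one of the genes with a miR408-complementary stretch, lies beside AT2G44798, which fell to 31.8 in dme, against 81.4 in WT (-1.36).

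Genes that make or act with noncoding RNAs were mostly outside the table. Of 31 genes of microRNA and small interfering RNA machinery, 2 were listed (6.45%, beside 18.6 percent of annotated protein-coding genes). AGO4, the Argonaute of RNA-directed DNA methylation, had an implied mean of 1984 in dme and 923.7 in WT in the authors' deposited table (log2 fold change 1.10, adjusted p 3.6e-20). SGS3, needed to make trans-acting small interfering RNAs, had 1108 in dme and 2404 in WT (-1.12, adjusted p 7.59e-05). Of 17 proteins of small nucleolar RNA particles and nucleoli 2 were listed, FIB2, a fibrillarin, with 943.4 in dme and 274.5 in WT (1.78, adjusted p 8.67e-23), and NUC2, a nucleolin, with 25.96 in dme and 72.6 in WT (-1.48, adjusted p 0.00168). None of 10 genes of tRNA maturation and none of 13 of RNA decay was listed.

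Listed targets of microRNAs and trans-acting small interfering RNAs went in both directions. Of 101 known targets, 27 were in the table (26.7%, beside the same 18.6 percent), 21 higher and 6 lower in dme, near the 72.8 percent higher of all listed genes, with a median log2 fold change of 1.39, beside 1.59 over all listed genes. APS4, an ATP sulfurylase and target of miR395, had an implied mean of 8755 in dme and 2463 in WT in the authors' deposited table (log2 fold change 1.83, adjusted p 1.51e-93). LAC7, a laccase and target of miR857, had 4249 in dme and 859.7 in WT (2.31, adjusted p 2.74e-71). AFB3, an auxin receptor and target of miR393, had 984.4 in dme and 2666 in WT (-1.44, adjusted p 6.95e-63). Of the 4 known miR408 targets in this list, LAC3, LAC12 and ARPN were higher and LAC13 was not listed. Of the 3 targets of miR398, named here after their values were seen, CSD1 was not listed and the others were lower: CSD2, the chloroplast copper/zinc superoxide dismutase, had 6227 in dme and 18297 in WT (-1.55, adjusted p 1.11e-46), and its copper chaperone CCS1 had 2686 in dme and 8107 in WT (-1.59, adjusted p 5.49e-48). No gene of miR395, miR857, miR393 or miR398 was among the 67.

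Phosphate starvation is a setting in which plant noncoding RNAs are well known, and its marker genes were mostly outside the table. Of 21, 6 were listed (28.6%, beside 18.6 percent of protein-coding genes), all higher in dme, as were 72.8 percent of all listed genes. The 15 not listed include SPX1, SPX2, SPX3, MGD2, MGD3, SQD1, SQD2 and PHF1. WRKY75 had an implied mean of 856.5 in dme and 133.5 in WT in the authors' deposited table (log2 fold change 2.68, adjusted p 7.96e-75), and the phosphate transporter gene PHT1;1 had 1001 in dme and 207.7 in WT (2.27, adjusted p 1.31e-45). PS2, a phosphatase gene, had 699.3 in dme and 9.60 in WT (6.19, adjusted p 5.32e-08), and PAP17, an acid phosphatase gene, had 979.5 in dme and 482.1 in WT (1.02, adjusted p 5.34e-11). Neither IPS1, a noncoding RNA that binds miR399 under phosphate starvation, nor a gene of miR399 was among the 67.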

How the data were processed

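Libraries of 3 dme and 3 WT samples were grouped by their titles. Per the submitters' processing notes, the tools were HISAT2 2.1.0, StringTie 2.1.3 and Trimmomatic 0.36, on build TAIR10. Not given in the sources used here are the way reads were counted, any use of strand, and the tool that tested the difference.

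The only file is the authors' comparison. The signal deposited for each gene is a mean normalized count over all libraries, whose scaling is not stated. Change stands, per the file headers, in a log2 and a linear fold column. The deposited p-value is adjusted by an unstated method. All 5322 rows have an absolute log2 fold change of at least 1.00 and an adjusted p of at most 0.0498. In 22 rows, 11 pairs repeat all values under another locus code and were counted once, leaving 5311. The number of per-sample columns was 0 and depth is unknown, so no fit or test was made here, the p-values printed are the authors', and no error is given.

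Genes whose log2 mean minus absolute log2 fold change was under -3 were taken as without reads in 1 genotype (290 genes). Names, overlaps, exon lengths and neighbours came from RefSeq's TAIR10.1 annotation, in which 67 of 67 members matched by locus code. Mature microRNA sequences were read from the text of the deposited table and matched to TAIR10.1, and the exons were searched on the transcribed strand for complementary stretches without gaps. Near-identical rows are overlapping genes whose means differ by less than 2%.

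The members and gene lists were chosen with earlier results of these data known. Named by rule were members typed as microRNA, small nucleolar RNA or pre-tRNA, those with a symbol, the 10 largest rises and 6 largest falls at a mean of at least 10, the 5 highest means without reads in 1 genotype, up to 4 members of each list with the smallest adjusted p, and listed neighbours of these. Other genes were named after their values were seen. Alternatives were other thresholds, filters on the mean and 0.5 added to or subtracted from all log2 fold changes; those on read sharing and on antisense pairs were added after seeing the data. Python 3.11.15, numpy 2.4.6, pandas 2.3.3 and matplotlib 3.10.9 were used, and the counting steps were tested on simulated data.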

Additional observations from a re-analysis of the deposited data

How the results depend on the processing

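The noncoding RNA genes numbered 28 higher and 39 lower in dme. Median log2 fold changes were 1.92 and -1.43 over the 24 and 35 of them with reads in both genotypes. At a 4-fold threshold there were 15 higher and 10 lower, so the higher ones became the majority (60%, beside 85.6% of all listed genes). The medians at that threshold, over the 11 and 6 with reads in both genotypes, were 3.50 and -2.33. At a mean of at least 50 there were 15 higher and 26 lower. With 0.5 added to all log2 fold changes there were 28 higher and 20 lower. Only listed genes could be shifted, so the number higher could not change there. An adjusted p under 0.01, a mean of at least 10, leaving out genes without reads in 1 genotype, subtracting 0.5 and leaving out near-identical rows (the last chosen after seeing the data) kept the counts within 1.5 times. Listed antisense partners shared the direction in 14 of 15 pairs, and in 9 of 10 with both means at least 50. The 3 other settings for these pairs, also chosen after seeing the data, gave 11 of 12, 12 of 13 and 16 of 17. No paired analysis was possible because the table holds no values per library, and leaving out replicates was not run for the same reason. Low counts limit the folds of genes with means under 50.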
